A study of Danio rerio with 16 samples.

Results

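Resting tail muscle of zebrafish carrying the ankrd1a allele bns502 was compared with that of wild type fish of the AB (Oregon) strain. The 8 libraries are those whose titles name a non-injured mutant (mut_NI, 4 libraries) or a non-injured wild type (wt_NI, 4 libraries), out of 16 libraries in the series. The bns502 line was made with CRISPR/Cas9 and is written ankrd1a-/- in the labels. The source was 1 fish per library, and the tissue was dissected from the tail just behind the anal opening; the labels call injured fish adult and give no other age. The other 8 libraries, 4 of each genotype, were from fish stabbed with a needle at that place 5 days earlier. They are used here as a separate set of fish, and they also enter the shared fit behind the resting calls. The labels do not say whether mutants and AB fish were siblings, what the lesion does to the transcript, or at what hour fish were sampled. The ankrd1a genotype and any other difference between the 2 lines therefore cannot be told apart. All 16514 genes with enough counts, of 32520 in the table, were tested.

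Ankrd1 belongs to the muscle ankyrin repeat proteins, which in mammals sit on titin in the I-band of the sarcomere and also enter the nucleus, where they act on transcription. In mammals the gene is known as a target of the co-activator YAP and as a transcript that climbs steeply when muscle is stretched, denervated or wounded. In resting muscle it is usually low. Zebrafish carry a pair of ankrd1 genes, ankrd1a and ankrd1b.

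The symbol table gives ANKRD1 to 2 IDs without telling ankrd1a and ankrd1b apart. ENSDARG00000075263 was at 4.27, 1.77, 2.99 and 5.08 CPM (counts scaled to the size of each library, with TMM normalisation) in wild types 1 to 4. It was at 1.19, 1.44, 1.16 and 1.09 CPM in mutants 1 to 4. All mutants were below the lowest wild type, and the log2 fold change was -1.53 (SE 0.28, edgeR adjusted p = 0.01). The adjusted p was not below 0.05 under 4 of 19 alternative settings, at up to 0.28. A fit of only the 8 non-injured libraries was among these 4. The resting difference was small beside the injury change of the gene: injured wild types were at 148, 151, 186 and 180 CPM and injured mutants at 147, 141, 90 and 148 CPM, a genotype difference of -0.34 (adjusted p = 0.55). ENSDARG00000076192, the other ANKRD1 ID, had at most 2 counts in any non-injured library, and ANKRD2, a relative from the same family, had 0 counts in all 8. Since the position of the lesion is not given, none of these levels checks the genotype labels.

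Of the 16514 genes tested, 467 (2.83%) differed between genotypes at an adjusted p below 0.05 and are referred to as called. Mutants were higher at 228 of them (1.38% of genes tested) and lower at 239 (1.45%). An unadjusted p below 0.05 was found at 3305 genes (20%). DESeq2, an alternative test, called 1136 genes, 519 higher and 617 lower. The median absolute log2 fold change of the called genes was 1.14, 269 were past 2-fold and 62 past 8-fold. At 425 of the 467 the mutant and wild type ranges did not overlap, against 9.04% of all genes tested (4.83% with mutants higher and 4.21% with mutants lower). The 467 were chosen by a test of the same libraries, so this count is a description only. With libraries scaled by their total counts alone, the split was 347 higher to 76 lower. The median of all genes was then 0.21, with 69.6% positive, against -0.01 and 48.7% with TMM. Directions are therefore given relative to TMM scaling. The count rested on single libraries: 172 genes were called without mutant 3, 244 without wild type 3 and 267 without mutant 2.

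Libraries of the genotypes differed in other ways. Total counts ran from 18011139 to 25231102 in wild types and from 17523688 to 19811573 in mutants, an exact permutation p of 0.114 where 0.0286 is the smallest that 4 against 4 allows. With all libraries thinned to equal depth 415 genes were called, 386 of them among the 467. Transcripts encoded in the mitochondrial genome took 7.75 to 16.34% of counts in wild types and 10.35 to 16.01% in mutants (exact p = 0.371). Skeletal muscle markers, led by myhc4, actc1b and ckmb, had a mean log2 CPM between 9.81 and 10.1 in all 8 libraries. Their sum varied more, from 249000 to 476000 CPM in wild types and from 223000 to 365000 CPM in mutants. Of 21 members tested 14 had negative and 7 positive fold changes, with a median of -0.23 and 0 called by edgeR.

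Most markers of epidermis, neutrophils, macrophages and bone, scale and fibroblasts had negative fold changes in mutants, although few of them passed the test (2.83% of all genes did). Epidermis markers had negative fold changes at 24 of 26 members tested, with a median of -1.35 against -0.01 for all genes. Their mean log2 CPM was 4.12, 2.11, 2.77 and 2.17 in wild types 1 to 4 and 0.72, 2.83, 1.04 and 1.57 in mutants, so the groups overlapped and wild type 1 stood highest. Neutrophil markers were at 1.32 to 2.30 in wild types and 0.26 to 0.80 in mutants, without overlap, with 10 of 11 members negative and a median of -0.95. Of the 37 lists, those of immediate early, YAP-TEAD, and interferon and antigen presentation genes were also without overlap. So were Tgf-beta, Bmp and myostatin genes (2.61 to 2.88 against 2.37 to 2.55) and antioxidant genes (3.72 to 3.87 against 3.56 to 3.69). Macrophage markers (29 of 32 negative, median -0.72) were at 1.83, 2.59, 3.68 and 1.58 in wild types and between 1.61 and 1.98 in mutants, so that the wild type excess lay in replicates 2 and 3. After injury the median was -0.02 for epidermis and 0.06 for macrophage markers, with 14 of 26 and 13 of 32 negative. For neutrophil and for bone, scale and fibroblast markers it was -0.595 and -0.385, with 10 of 11 and 24 of 26 negative. Without injury, bone, scale and fibroblast markers were negative at 26 of 26 tested members under TMM scaling. When libraries were scaled by total counts alone, 19 of 26 were negative, against 30.4% of all genes. None was called by edgeR, and 5 had an unadjusted p below 0.05, against 20% of all genes. DESeq2 called 3 lower, against 617 of all 16514 genes.

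Summed over each whole list, epidermis markers took 1100 to 3070 CPM in wild types and 842 to 1560 in mutants. The same sum was 235 to 1540 against 223 to 290 CPM for macrophage markers, and 88.6 to 118 against 50.5 to 62.4 CPM for neutrophil markers. For bone, scale and fibroblast markers it was 354 to 778 against 277 to 377 CPM. Among the listed markers of these 4 kinds, itln2 of the epidermis list and 2 MFAP4 IDs of the macrophage list were at 0 in all 8 libraries. Entering the epidermis level into the model left 172 calls, 151 of them among the 467, and entering the macrophage level left 250, 221 of them shared. Without wild types 1 and 3, which are highest in epidermis and in macrophage markers, 114 were called. In bulk muscle, fewer cells of a type and less RNA per cell cannot be told apart. The part of these cells in the other results was not tested.

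**Figure D1:**
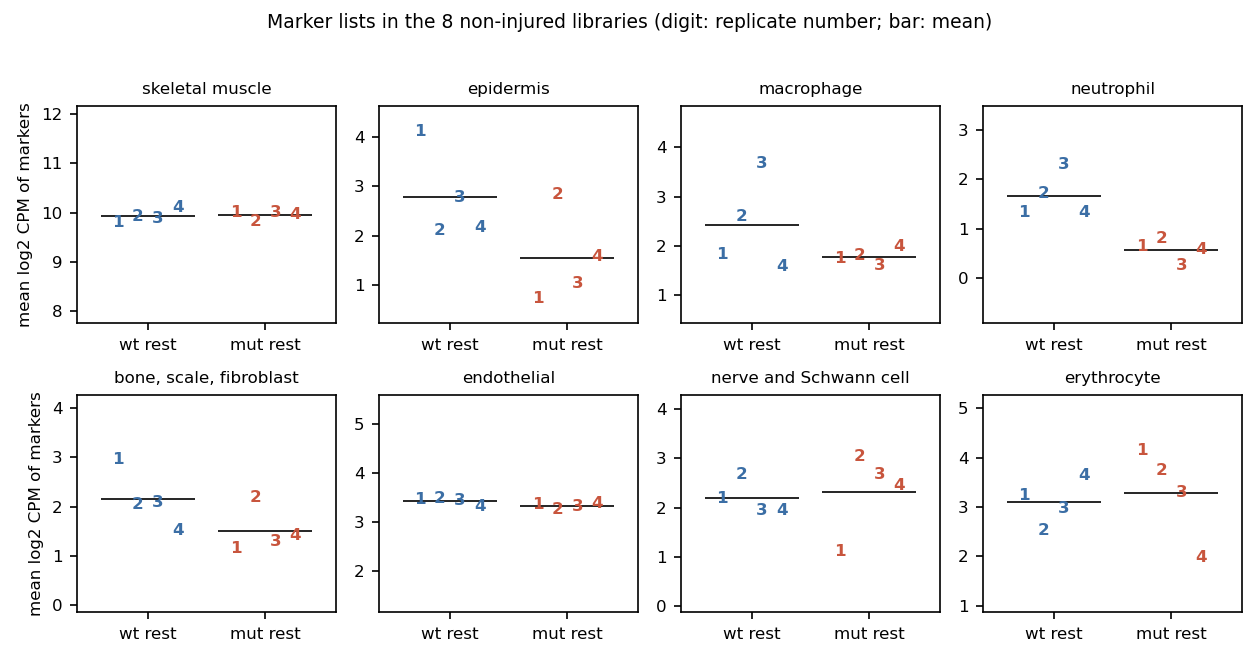
Mean log2 CPM (y axis) of the markers of 8 cell types in the 8 non-injured libraries, with digits for replicate numbers and a bar for each group's mean. The neutrophil list is the panel without overlap (wild types 1.32 to 2.30, mutants 0.26 to 0.80), while skeletal muscle markers lie between 9.81 and 10.1 throughout.

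Immediate early genes, which cells switch on within minutes of stimulation, had the lowest median of the 37 lists apart from markers of epidermis, neutrophils and macrophages. Of 40 tested members, 34 had negative fold changes, the median was -0.70, 5 fell and none rose, against 1.45% of all genes that fell. The list's mean log2 CPM was 2.59, 2.65, 3.10 and 2.85 in wild types and 2.12, 2.24, 2.22 and 2.48 in mutants. These levels were without overlap, as in other lists named above. When libraries were scaled by total counts alone, 29 of the 40 stayed negative, against 30.4% of all genes. After injury 30 of the 40 had positive fold changes, with a median of 0.16.

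The Krüppel-like factor klf2a, a flow-responsive regulator in endothelium, was at 33.3, 53.1, 49.4 and 38.5 CPM in wild types and at 19.8, 24.5, 23.8 and 23.3 CPM in mutants. It fell by 0.93 on the log2 scale (SE 0.15, adjusted p = 0.0046). SIK1, a salt-inducible kinase that restrains CREB signalling, was at 62.8, 154, 107 and 154 CPM in wild types and at 43.5, 25.1, 22.0 and 32.8 CPM in mutants, so its log2 change was -1.95 (SE 0.32, adjusted p = 0.0051). JUND, an AP-1 subunit, fell by 1.15 (adjusted p = 0.017, but 0.061 without mutant 3). KLF4 fell by 0.94 (adjusted p = 0.019, and up to 0.055 without mutant 2 or mutant 3). FOSB, another AP-1 subunit, had a fold change of -1.84 at 10 to 30 counts per wild type and 4 to 6 per mutant. Its call was lost without wild type 1 or 3 or any of the 4 mutants, with an adjusted p of up to 0.089. Among members that missed the threshold, the zinc finger early gene egr1 stood at 1.74 (adjusted p = 0.082), opposite to ATF3 at -1.75 (adjusted p = 0.069) and NR4A3 at -1.74 (adjusted p = 0.063).

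YAP-TEAD pathway genes, with 23 members tested, had a mean log2 CPM of 2.80 to 2.91 in wild types and 2.51 to 2.62 in mutants. ANKRD1 (ENSDARG00000075263), which may be the edited gene itself, was the only member of that list called, against 2.83% of all genes tested. With only the 8 non-injured libraries fitted, 0 of 21 were called, against 130 of all 14735 genes tested there. CCN2, a classical YAP target, stood at -0.95 (adjusted p = 0.13) and the kinase gene LATS2 at -0.32 (adjusted p = 0.11). The list's median was -0.32 (-0.01 for all genes), and -0.08 when libraries were scaled by total counts alone (0.21 for all genes).

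**Figure D2:**
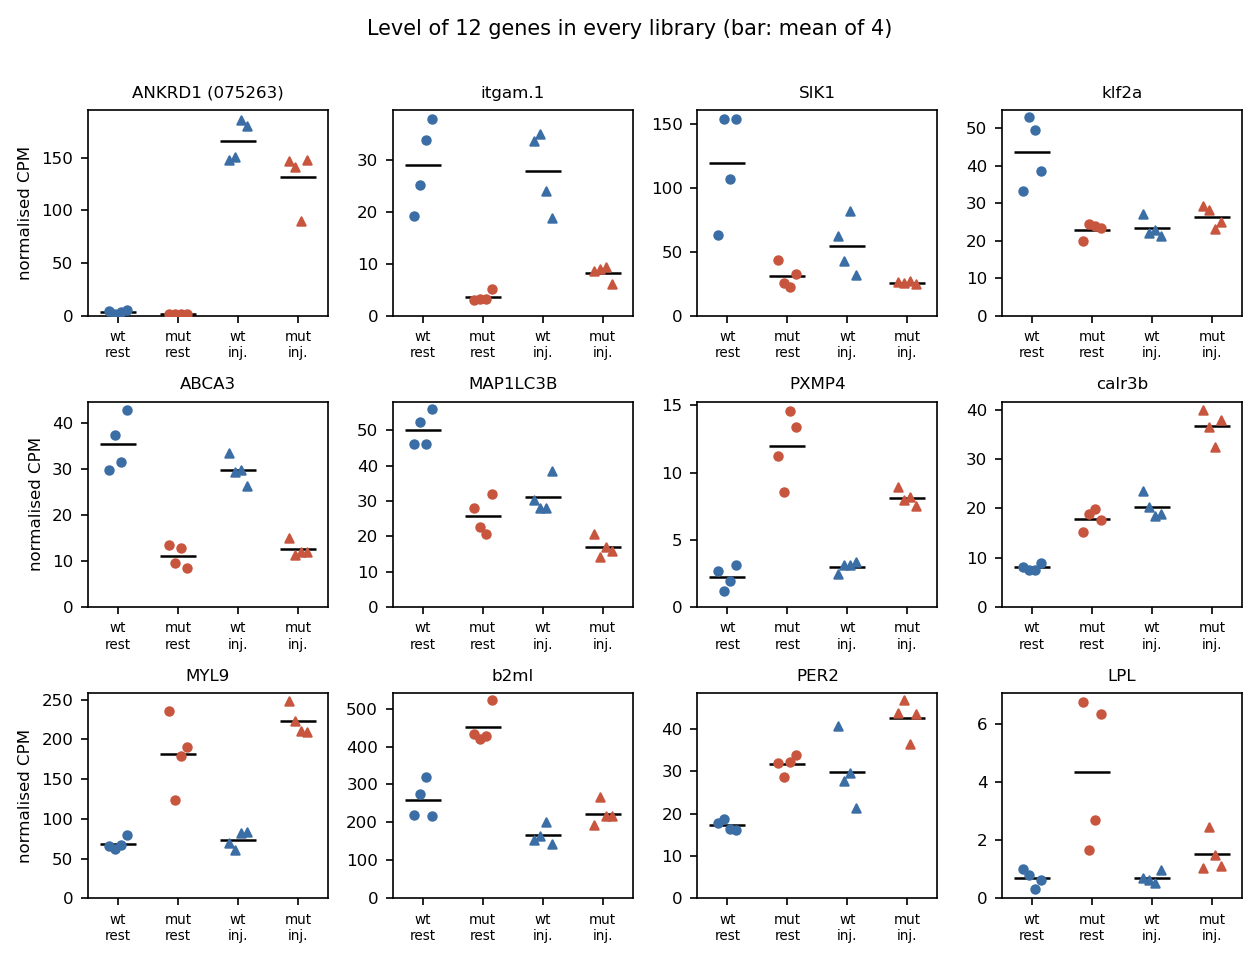
Normalised CPM (y axis, from 0) of 12 genes in each of the 16 libraries, by genotype (blue wild type, red mutant) and injury (circles non-injured, triangles injured), with a bar for each mean. In the 8 non-injured libraries mutants lie wholly below wild types for ANKRD1, itgam.1, SIK1, klf2a, ABCA3 and MAP1LC3B and wholly above them for PXMP4, calr3b, MYL9, b2ml, PER2 and LPL.

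Of the genes lower in mutants, itgam.1, related to the CD11b integrin chain of neutrophils and macrophages, was at 19.3, 25.3, 34 and 37.9 CPM in wild types and at 3.07, 3.21, 3.12 and 5.18 CPM in mutants. Its log2 fold change was -3.0 (SE 0.27, adjusted p = 4.1e-05), and it was called under each of the 19 alternatives tried. The difference was present in injured fish as well, at 18.9 to 35.1 CPM in wild types and 6.03 to 9.29 in mutants (-1.76, adjusted p = 0.0023). The macrophage and neutrophil lists had medians of -0.72 and -0.95 in the same comparison, and itgam.1 is itself a member of the neutrophil list. MFAP4 (ENSDARG00000088745), of the family that marks zebrafish macrophages, was at 3.56, 11.1, 7.33 and 3.90 CPM against 0.43, 0.96, 1.43 and 1.15 CPM, or -2.70 on the log2 scale (adjusted p = 0.014). After injury the same MFAP4 gene differed by -0.47 (adjusted p = 0.68). RSEM shares reads among near-identical copies, so the split among MFAP4 IDs is uncertain.

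ABCA3, a transporter of phospholipids into lamellar bodies in mammalian lung, had one of the steadiest differences. Wild types were at 29.7, 37.3, 31.6 and 42.9 CPM and mutants at 13.4, 9.56, 12.8 and 8.51 CPM, a fold change of -1.67 on the log2 scale (SE 0.16, adjusted p = 8.3e-05). Injured mutants were also below injured wild types, by -1.25 (adjusted p = 0.00099). The exchange factor gene arhgef18a, which in mammals activates RhoA, was at 4.04 to 11.6 CPM in wild types and 0.58 to 2.35 CPM in mutants (-2.82, adjusted p = 0.0025). ITGA3, a laminin-binding integrin chain, went from 3.55 ± 1.23 to 0.98 ± 0.36 CPM (mean ± SD, n = 4 each), a change of -1.86 (adjusted p = 0.013, but 0.051 without mutant 3). ANKRD9 was at 76.5, 137, 148 and 144 CPM in wild types and at 53.4, 18.3, 30.9 and 20.5 CPM in mutants, or -2.04 on the log2 scale (adjusted p = 0.01).

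Extracellular matrix genes had 3 called members of 57 tested, all lower, where 1.45% of all genes tested were called lower. The list's median was -0.24, with 44 negative values. In a model without the injured fish edgeR called 1 of 53, lower, against 62 of all 14735 genes tested there. Scaled by total counts alone, 29 of the 57 were negative, against 30.4% of all genes. Of the 3 called, MFAP4, described above, is also a member of the macrophage list. THBS1 (ENSDARG00000103775), a matricellular thrombospondin that activates latent Tgf-beta, was at 83.4, 84.0, 129 and 72.2 CPM in wild types against 35.6, 48.5, 51.5 and 49.0 CPM in mutants (-1.0, adjusted p = 0.014). In injured fish THBS1 did not separate by genotype (0.16, adjusted p = 0.76). MMP14 (ENSDARG00000008388), a membrane-bound collagenase, fell by 0.71 at an adjusted p of 0.0495, and its call was lost without wild type 1, 2 or 3 or any mutant (up to 0.13). The basement membrane collagen col4a6, named by its size of change and not a list member, fell by 1.68 (adjusted p = 0.0074), from 4.92 ± 1.12 to 1.53 ± 0.25 CPM. Epidermis markers were also lower in these mutants, and with their level as a covariate the adjusted p was 0.022 for col4a6 and 0.059 for THBS1.

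Genes of the Tgf-beta, Bmp and myostatin pathways gave 2 called members of 35 tested, both lower, where 1.45% of all genes tested were called lower. Scaled by total counts alone, both lost their call (adjusted p = 0.086 for INHBA and 0.065 for INHBB). Under that scaling 76 of all 16514 genes were called lower. It left 21 of the 35 positive, against 69.6% of all genes. The activin subunit genes INHBA (ENSDARG00000012671) and INHBB (ENSDARG00000040777) were at 2.17 to 3.84 and 0.54 to 1.34 CPM in wild types against 0.95 to 1.34 and 0.06 to 0.26 CPM in mutants. Their log2 fold changes were -1.24 (adjusted p = 0.034) and -2.37 (adjusted p = 0.033). INHBB rested on 12 to 26 counts per wild type and 1 to 5 per mutant. INHBA lost its call without wild type 1 or 2 or any mutant (adjusted p up to 0.11), and INHBB without wild type 1, 2 or 3 or any mutant (up to 0.085). BMP6, a bone morphogenetic protein gene outside the list, went from 1.92 ± 0.43 to 0.70 ± 0.29 CPM (-1.46, adjusted p = 0.014, but 0.051 without mutant 3).

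In the protein breakdown and autophagy list, 2 of 36 tested members were called, both lower, where 1.45% of all genes tested were called lower. When libraries were scaled by total counts alone, 1 was called higher and 1 lower, against 347 and 76 of all 16514 genes. MAP1LC3B, whose protein coats autophagosomes, was at 46.2, 52.4, 46.0 and 56.0 CPM in wild types and at 27.9, 22.5, 20.6 and 31.9 CPM in mutants. It fell by 0.97 (SE 0.16, adjusted p = 0.006), and by 0.89 in injured fish (adjusted p = 0.011). The Forkhead factor foxo3a, which drives atrophy genes in mammalian muscle, had a fold change of -0.82 (adjusted p = 0.037), lost without wild type 1 or 2 or mutant 1, 3 or 4 (up to 0.12) and under the other scaling (0.21). The list's median of -0.16 became 0.06 when libraries were scaled by total counts alone, while that of all genes went from -0.01 to 0.21.

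Of 34 circadian clock genes tested, 2 were called higher and 3 lower, against 1.38% and 1.45% of all genes tested. The calls were 2 higher and 0 lower when libraries were scaled by total counts alone, against 347 and 76 of all 16514 genes. PER2, a light-responsive repressor of the clock, was at 17.7, 18.8, 16.5 and 16.2 CPM in wild types and at 32.1, 28.7, 32.2 and 34 CPM in mutants (0.88, SE 0.16, adjusted p = 0.0093). The spread within each genotype was far smaller than the gap between them. On the lower side, the output factor dbpb went from 37.7 ± 3.16 to 21.6 ± 2.19 CPM (-0.81, adjusted p = 0.0051). The clock repressor ciarta went from 32.2 ± 4.46 to 19 ± 2.73 CPM (-0.76, adjusted p = 0.006). Under that other scaling their adjusted p was 0.095 and 0.094. BHLHE40, a repressor of clock activators, fell by 0.67 (adjusted p = 0.025, 0.13 under the other scaling, and up to 0.064 without wild type 2 or 3 or mutant 1, 2 or 4). The nuclear receptor rorab rose by 0.58 (adjusted p = 0.034, and up to 0.086 without wild type 3 or mutant 2, 3 or 4). In injured fish dbpb was again lower in mutants (-0.79, adjusted p = 0.0059), while PER2 stood at 0.51 (adjusted p = 0.12) and ciarta at -0.42 (adjusted p = 0.12). Whether the genotypes were sampled at the same hour was not tested.

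The antioxidant list had a pair of genes for cystathionine beta-synthase, the enzyme that channels homocysteine towards cysteine, called in opposite directions. The gene with the symbol CBS rose from 1.75 ± 0.42 to 5.87 ± 2.56 CPM (1.75, adjusted p = 0.027). The gene cbsb fell from 31.8 ± 8.31 to 12.7 ± 3.17 CPM (-1.33, adjusted p = 0.015). The call of CBS was lost without wild type 1, 3 or 4 or mutant 3 or 4 (up to 0.079), and that of cbsb without mutant 3 (0.056). KEAP1, the sensor that holds the antioxidant factor Nrf2 in check, fell by 0.69 (adjusted p = 0.034, and up to 0.11 without wild type 2 or 3 or mutant 1, 2 or 3). In all, 1 of 33 members tested rose and 3 fell, against 1.38% and 1.45% of all genes tested. The third to fall was gstt2, a glutathione transferase gene, at -1.94 (adjusted p = 0.049). Scaled by total counts alone, 1 was called higher and 0 lower by edgeR, against 347 and 76 of all 16514 genes. Positive values were then found at 21 of 33, against 69.6% of all genes.

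**Figure D3:**
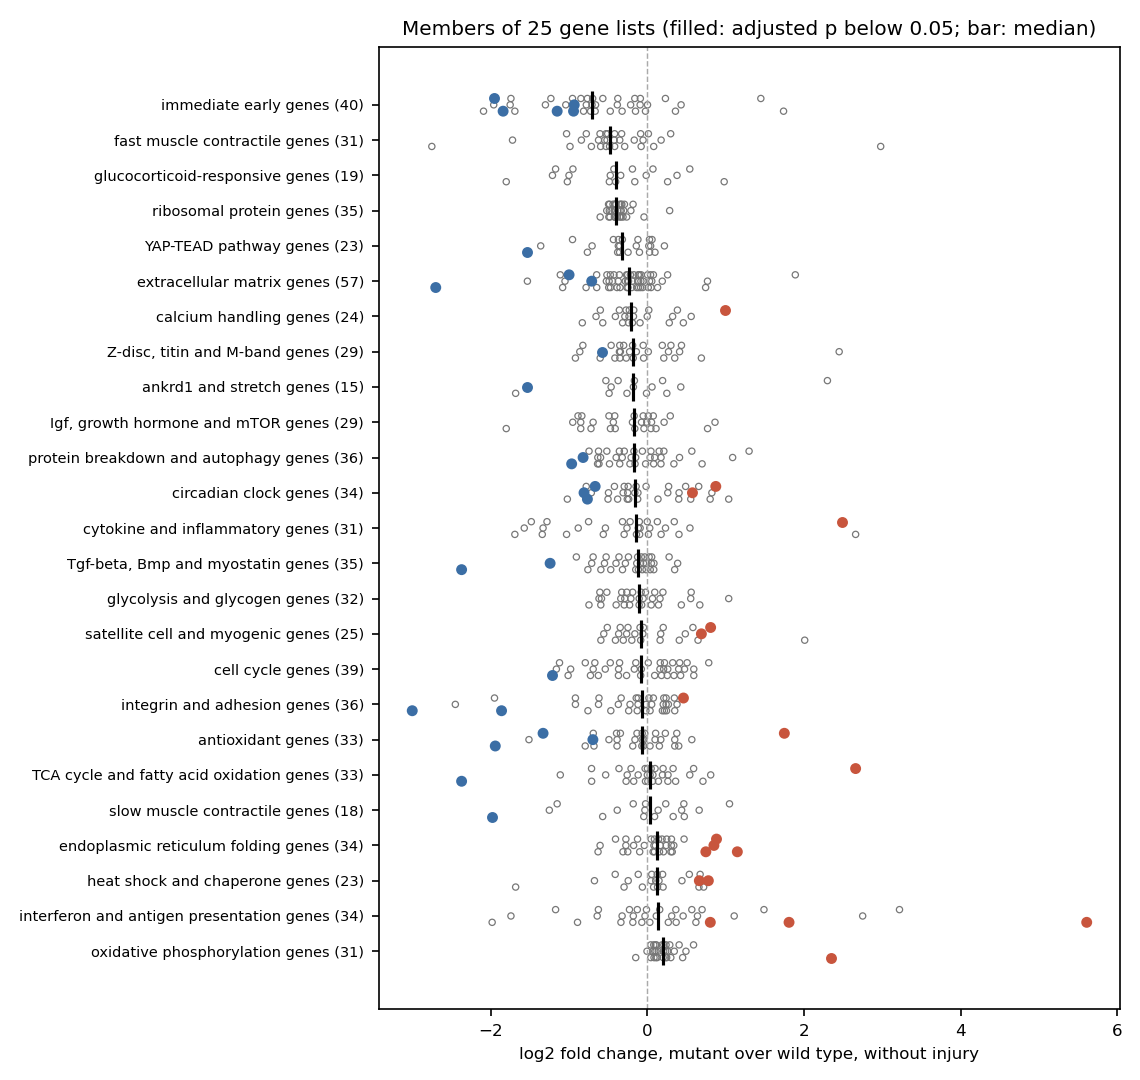
Log2 fold change without injury (x axis, mutant over wild type) of each tested member of 25 gene lists (y axis, members tested in brackets), with filled points for called genes (red higher, blue lower) and a bar for the median. Immediate early genes lie lowest with a median of -0.70 and 5 called, and oxidative phosphorylation genes highest with a median of 0.20 and 1 called.

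Of the genes higher in mutants, PXMP4, a membrane protein of peroxisomes, was at 2.67, 1.22, 1.91 and 3.13 CPM in wild types and at 11.2, 8.55, 14.6 and 13.4 CPM in mutants. This is a change of 2.41 (log2, SE 0.24, adjusted p = 8.3e-05), and injured mutants were higher as well (1.44, adjusted p = 0.0044). NUDT12, a hydrolase of NADH and of NAD-capped RNA in mammals, rose by 1.63 (adjusted p = 0.00067), from 2.06 ± 0.10 to 6.41 ± 1.34 CPM. The noncoding snoRNA host gene gas5 rose by 1.54 (adjusted p = 0.0062), and in injured fish the difference was 2.40 (adjusted p = 8.7e-05). RNASEK, linked to the proton pump of acidic vesicles, went from 1.31 ± 0.59 to 6.39 ± 2.27 CPM (2.30, adjusted p = 0.0026). LPL (ENSDARG00000098720), the lipoprotein lipase that frees fatty acids for uptake, was at 1.01, 0.79, 0.31 and 0.64 CPM in wild types and at 6.74, 1.66, 2.69 and 6.33 CPM in mutants. LPL changed by 2.66 (SE 0.47, adjusted p = 0.0082), and all mutants were above all wild types. Its call was lost under 5 of 19 alternatives (adjusted p up to 0.13).

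LPL was also the called member of the adipocyte marker list, whose other 16 tested members were not called and whose median was -0.16. Over all genes tested 2.83% were called. In the list of the TCA cycle and fatty acid oxidation, LPL was joined by PDK2 (ENSDARG00000059054), a kinase that inhibits pyruvate dehydrogenase. Of the 33 members tested there, 1 was called higher and 1 lower, against 1.38% and 1.45% of all genes tested. PDK2 was lower, at 12.7, 6.46, 50.2 and 22.6 CPM against 6.95, 2.19, 2.27 and 6.46 CPM, with overlapping groups (-2.37, adjusted p = 0.04). Its call was lost without wild type 3 or 4 or any mutant, at up to 0.12.

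Endoplasmic reticulum folding genes had 4 called members of 34 tested, all higher, where 1.38% of all genes tested were called higher. The calreticulin gene calr3b, a calcium-binding chaperone, was at 8.13, 7.50, 7.49 and 8.94 CPM in wild types and at 15.1, 18.8, 19.8 and 17.6 CPM in mutants (1.15, SE 0.12, adjusted p = 0.00012). The same difference was 0.86 in injured fish (adjusted p = 0.0016). The collagen chaperone SERPINH1 is carried by 2 IDs, and both rose. ENSDARG00000019949 went from 26.3 ± 6.10 to 48.5 ± 4.59 CPM (0.88, adjusted p = 0.01), and ENSDARG00000075954 from 21.3 ± 5.39 to 35.7 ± 5.04 CPM (0.75, adjusted p = 0.026, and up to 0.081 without wild type 3 or mutant 2, 3 or 4). DNAJB11, a co-chaperone of the BiP protein, rose by 0.85 (adjusted p = 0.034, and up to 0.10 without wild type 1, 2 or 4 or mutant 3 or 4). TXNDC5, a disulfide isomerase outside the list, rose by 0.61 (adjusted p = 0.034, and up to 0.094 without wild type 1, 2 or 3 or mutant 1, 2 or 3). Over the list, 23 of 34 members had positive fold changes with a median of 0.12. In a model without the injured fish edgeR called 1 of the 34, higher, against 68 of all 14735 genes tested there. DNAJB11 and both SERPINH1 IDs lost their call in that model.

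Among heat shock and chaperone genes, 2 of 23 tested rose, where 1.38% of all genes tested were called higher. HSPE1, the mitochondrial co-chaperonin, went from 27.0 ± 4.69 to 42.9 ± 5.37 CPM (0.67, adjusted p = 0.024, and up to 0.073 without wild type 1 or 2 or mutant 3 or 4). The stress factor hsf1 rose by 0.78 (adjusted p = 0.04), a call lost on leaving out any 1 of the 8 libraries, with adjusted p of up to 0.088.

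Interferon and antigen presentation genes had 3 called members of 34 tested, all higher, where 1.38% of all genes tested were called higher. In a model without the injured fish edgeR called 0 of 28, against 130 of all 14735 genes tested there. The adjusted p was 0.088 for b2ml and 0.075 for UNC93B1. The other called member, mhc1lia, was not among the genes tested in that model. The list's mean log2 CPM was 1.98, 1.6, 1.62 and 1.69 in wild types and 2.36, 2.14, 2.18 and 2.1 in mutants. These levels were without overlap, as in other lists named above. The gene b2ml, a beta-2 microglobulin that forms the light chain of class I molecules, was at 219, 276, 321 and 217 CPM in wild types and at 432, 421, 429 and 522 CPM in mutants (0.81, SE 0.16, adjusted p = 0.017). UNC93B1, which carries nucleic acid-sensing Toll-like receptors to endosomes, went from 1.42 ± 0.77 to 4.96 ± 1.26 CPM (1.81, adjusted p = 0.0082). The class I gene mhc1lia was at 0, 0, 0.10 and 0.14 CPM in wild types, at most 3 counts in a library, and at 5.12, 4.06, 4.38 and 0.38 CPM in mutants (adjusted p = 0.013). MHC genes differ between zebrafish haplotypes in which copies are present, which is background and was not tested here. The sister gene b2m stood at 0.70 (adjusted p = 0.058), and the interferon regulators IRF7 and IRF8 were on the other side, at -1.17 and -0.62 (adjusted p = 0.093 and 0.19). Of the list's 34 members, 19 were positive and 15 negative, with a median of 0.14, and after injury 20 were negative. The cytokine list had 1 call in 31, against 2.83% of all genes tested. It was tnfrsf1b, a receptor of tumour necrosis factor, at 2.62 to 9.09 CPM in wild types and 21.2 to 36.6 CPM in mutants (2.49, adjusted p = 0.034). That call was lost without wild type 1, 2 or 4 or mutant 2, 3 or 4 (up to 0.088).

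By edgeR, the contractile machinery of fast fibres gave no called gene among 31 tested, against 2.83% of all genes. An unadjusted p below 0.05 was found at 8, against 20% of all genes. DESeq2 called 4 lower, against 617 of all 16514 genes. Its fold changes leaned downwards, with 26 of 31 negative and a median of -0.48 (22 of 31 and -0.23 when scaled by total counts alone). Of all genes 51.3% were negative with a median of -0.01 (30.4% and 0.21 when scaled by total counts alone). The alpha-actinin actn3a stood at -0.99 (adjusted p = 0.082), the troponin genes TNNC2 and TNNT3 at -0.53 and -0.51 (both adjusted p = 0.14), and the actin actc1b at -0.54 (adjusted p = 0.18). The most abundant transcript, the fast myosin heavy chain myhc4, had 101000, 205000, 153000 and 89300 CPM in wild types and 91000, 82300, 78400 and 159000 CPM in mutants, with overlapping groups (-0.42, adjusted p = 0.46). None of the 10 most abundant genes was called, where 2.83% of all genes tested were.

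MYOM2, a protein of the M-band that crosslinks thick filaments, was the called member among 29 Z-disc, titin and M-band genes. It was at 1800, 1610, 1620 and 1790 CPM in wild types and at 1160, 1150, 1040 and 1210 CPM in mutants (-0.58, adjusted p = 0.038). Its groups were far apart, but the call was lost without wild type 1, 3 or 4 or any mutant (up to 0.12) and when scaled by total counts alone. Among 24 calcium handling genes, CASQ2, the calsequestrin that stores calcium in heart and slow fibres, rose from 37.8 ± 12 to 75.4 ± 15.9 CPM (1.0, adjusted p = 0.022, and up to 0.074 without wild type 2 or 3 or mutant 3). In the slow contractile list only zgc:163073 was called, lower at -1.98 (adjusted p = 0.032, and up to 0.10 without wild type 3 or any mutant). Each of these lists thus had 1 called member, of 29, 24 and 18 tested, against 2.83% of all genes tested. The lists of glycolysis and of Igf, growth hormone and mTOR genes had 0 called members of 32 and 29 by edgeR. In these lists 7 and 8 members had an unadjusted p below 0.05, against 20% of all genes. DESeq2 called 2 and 3, against 1136 of all 16514 genes.

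MYL9 (ENSDARG00000008030), the regulatory light chain of smooth muscle and nonmuscle myosin, was among the clearest differences in the data. Wild types were at 65.6, 62.4, 66.6 and 80.2 CPM and mutants at 236, 124, 179 and 190 CPM, which is 1.41 on the log2 scale (SE 0.17, adjusted p = 0.00056). In injured fish the levels were 61.0 to 83.2 CPM and 209 to 249 CPM (1.59, adjusted p = 0.00021). The remaining 17 tested smooth muscle and pericyte markers gave no call, where 2.83% of all genes tested were called, and the list's median was 0.01. Integrin-linked kinase ILK, an adaptor between integrins and actin, rose by 0.46 (adjusted p = 0.043), a call lost without wild type 1, 2 or 3 or mutant 1, 2 or 3 (up to 0.14). In the integrin and adhesion list ILK rose while itgam.1 and ITGA3 fell, of 36 tested, against 1.38% and 1.45% of all genes tested.

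Satellite cell and myogenic genes had 2 called members of 25 tested, both higher, where 1.38% of all genes tested were called higher. Both calls were lost in a fit of only the 8 non-injured libraries, where edgeR called 0 of 24, against 130 of all 14735 genes. Adjusting for epidermis markers left 0 of 25 called, against 172 of all 16514 genes. Both calls stayed when libraries were scaled by total counts alone. The myogenic factor MYF5, which marks activated muscle stem cells and myoblasts, was at 2.91, 2.26, 2.84 and 2.77 CPM in wild types and at 3.83, 4.97, 5.81 and 4.29 CPM in mutants (0.81, adjusted p = 0.019, and up to 0.067 without wild type 2 or mutant 3). The adhesion receptor jam2a, needed for myoblast fusion in zebrafish, went from 9.63 ± 1.08 to 15.5 ± 1.48 CPM (0.69, adjusted p = 0.017, and up to 0.055 without wild type 3 or mutant 3). In injured fish jam2a was again higher in mutants, by 0.70 (adjusted p = 0.019), whereas MYF5 stood at 0.12 (adjusted p = 0.79). Of cell cycle genes, 1 of 39 was called, against 2.83% of all genes tested. It was the cyclin-dependent kinase inhibitor cdkn1a, at -1.21 (adjusted p = 0.038). It lost its call without wild type 2 or 4 or mutant 1, 3 or 4 (up to 0.084).

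Oxidative phosphorylation genes had 1 called member of 31 tested, against 2.83% of all genes. Their fold changes were positive at 29 of 31 members without injury, with a median of 0.20, and at 27 of 31 after injury, with a median of 0.27. The list's mean log2 CPM was 7.97, 8.07, 7.79 and 8.47 in wild types and 8.49, 8.28, 8.41 and 8.27 in mutants, so the groups overlapped through wild type 4. The called member was cox6b1, a subunit of cytochrome c oxidase, at 2.2, 3.17, 3.87 and 2.13 CPM in wild types and 28.9, 12.2, 10.0 and 6.91 CPM in mutants (2.35, adjusted p = 0.0081). After injury cox6b1 stood at -0.16 (adjusted p = 0.89). Its resting call was lost under 3 of 19 alternatives (adjusted p up to 0.18). With the epidermis level as a covariate 21 of 31 members were positive, and with the macrophage level as a covariate the direction turned, with 10 of 31 positive and a median of -0.04. Ribosomal protein genes were negative at 34 of 35 members (median -0.40), with 0 called by edgeR. An unadjusted p below 0.05 was found at 13, against 20% of all genes. DESeq2 called 1, against 1136 of all 16514 genes. RPL4 was at 1150, 1550, 1520 and 977 CPM in wild types and at 697, 804, 928 and 1300 CPM in mutants, so the groups overlapped, mutant 4 being within the wild type range. Scaled by total counts alone, 31 of 35 stayed negative with a median of -0.16, against 30.4% and 0.21 for all genes. After injury the ribosomal protein list was negative at 32 of 35, with a median of -0.16.

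Lists of the remaining cell types gave at most 2 called members each, where 2.83% of all genes tested were called. Among endothelial markers plvapb, a component of endothelial fenestrae, fell by 1.02 (adjusted p = 0.025, and up to 0.086 without wild type 1 or 3 or mutant 3 or 4), while the list's median was -0.01. In the epidermis list ANXA1 (ENSDARG00000026726), an annexin of skin and leukocytes, fell by 0.98 (adjusted p = 0.033) and the lectin ITLN1 rose by 2.0 (adjusted p = 0.037). The call of ANXA1 was lost without wild type 1 or 3 or mutant 1, 3 or 4 (up to 0.10), and that of ITLN1 without any 1 of the 8 libraries (up to 0.093). Lymphocyte, nerve and Schwann cell, erythrocyte and pigment cell markers and glucocorticoid-responsive genes had 0 called by edgeR, of 10, 25, 12, 12 and 19 tested. In the same order 1, 0, 3, 0 and 6 had an unadjusted p below 0.05, against 20% of all genes. DESeq2 called 1 lymphocyte marker, 1 erythrocyte marker and 1 glucocorticoid-responsive gene, and 0 of the other 2 lists. Over all 16514 genes it called 1136.

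A tandem family of F-box genes, whose proteins select targets for ubiquitination, held 3 called members of 7 tested, against 2.83% of all genes, and was picked out after its values were seen. The gene fbxo44.9 was at 8.25, 8.54, 8.78 and 6.08 CPM in wild types and at 0.16, 0.37, 0.26 and 0.26 CPM in mutants (-4.87, adjusted p = 0.00063). The gene fbxo44.10 was at 6.88, 3.35, 2.94 and 2.68 CPM against 0.70, 0.53, 0.48 and 0.45 CPM (-2.85, adjusted p = 0.001). A sister, fbxo44.5, was higher, from 14.8 ± 2.93 to 22.6 ± 2.96 CPM with overlapping groups (0.61, adjusted p = 0.045, and up to 0.12 without wild type 1, 2 or 3 or mutant 1, 2 or 3). In injured mutants fbxo44.9 was at 3.78, 0.46, 6.96 and 5.47 CPM, against 6.81 to 9.98 CPM in injured wild types. The copies share sequence, so RSEM may move reads between them.

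Some of the called genes were at or near 0 in 1 genotype. Of the 62 called genes past 8-fold, 34 were higher and 28 lower in mutants, and in their higher group they had a median of 2.17 CPM, against 7.02 CPM for all called genes. After injury 58 of the 62 kept the same sign and 20 were called in the same direction. ENSDARG00000096678, which has no symbol in the table, was at 37.8, 24.2, 17.6 and 22.5 CPM in wild types and at 0.65, 0.91, 0.26 and 0.19 CPM in mutants (-5.62, adjusted p = 1.6e-05). ENSDARG00000109267, also without a symbol, was the opposite, at 0 to 0.32 CPM in wild types and 6.25 to 14.8 CPM in mutants (6.04, adjusted p = 7.3e-05). Of zgc:172106 the 4 mutants had 0 counts and the 4 wild types 140. The T-box factor tbx6, a regulator of presomitic mesoderm in embryos, was at 0.55 to 2.07 CPM in wild types and 0.05 to 0.11 CPM in mutants (-4.30, adjusted p = 0.00019). Its level is that of 9 to 42 counts in a wild type library. The neurotensin receptor NTSR1 rose from 0.27 ± 0.11 to 5.36 ± 2.64 CPM (4.29, adjusted p = 0.00081), and the lectin gene hbl2, just under 8-fold, from 0.51 ± 0.10 to 3.86 ± 1.12 CPM (2.91, adjusted p = 0.00012).

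The injured fish gave a comparison of the same genotypes whose group means rest on other libraries than the resting comparison. Both contrasts came from 1 fit of all 16 libraries, so they shared the scaling, the gene filter and each gene's estimate of spread. Fitting only the 8 non-injured libraries gave 130 resting calls. After injury 244 genes were called (1.48% of genes tested, 0.83% higher and 0.648% lower in mutants), and 83 genes (0.503%) were called in both states. All 83 had the same direction in both, 47 higher and 36 lower in mutants, and at 56 of them all 8 mutants lay apart from all 8 wild types, against 0.866% of all genes tested. They were 17.8% of the resting calls and 34% of the calls after injury. Of the 467 resting calls 423 (90.6%) had the same sign after injury, where 66.5% of all genes tested did. Their median size fell from 1.14 to 0.50 on the log2 scale, counted in the resting direction, and 421 of the 467 were smaller after injury. Since the genes were chosen by the resting test, the comparison of sizes is a description. The 83 were chosen by tests of these same 16 libraries, so their lack of overlap is a description too. The count of 83 was 45 without mutant 3 and 55 without mutant 2.

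Examples called in both states with no overlap among all 16 libraries were itgam.1, ABCA3, MYL9, PXMP4, NUDT12, NTSR1, hbl2 and tbx6, described above. REV3L, the catalytic subunit of translesion DNA polymerase zeta, was at 27.6, 46.0, 30.9 and 32.9 CPM in wild types and at 16.8, 20.2, 18.8 and 16.4 CPM in mutants. It fell by 0.93 without injury (adjusted p = 0.0051) and by 0.96 after it (adjusted p = 0.004). NIF3L1, of the conserved NIF3 protein family, rose from 3.83 ± 1.43 to 9.99 ± 0.81 CPM (1.37, adjusted p = 0.0024), and by 1.38 after injury (adjusted p = 0.0021).

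**Figure D4:**
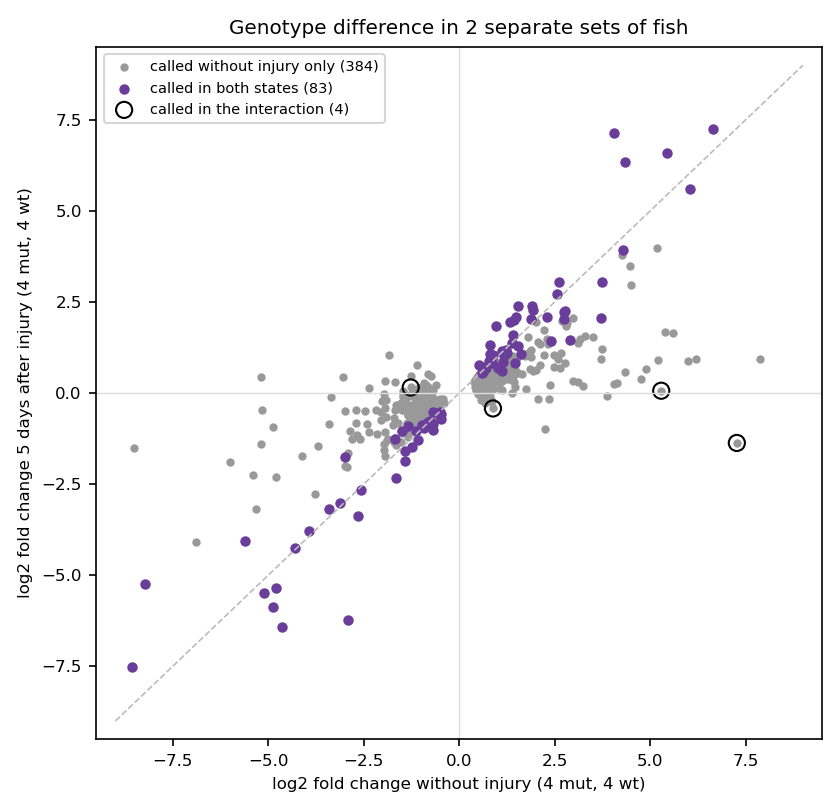
Log2 fold change of mutant over wild type without injury (x axis) and 5 days after it (y axis) for the 467 genes called without injury, with the dashed line for equal values. The 83 genes called in both states (violet) all lie in the quadrants of equal sign, and the 4 genes called in the interaction (rings) have values between -1.37 and 0.15 after injury.

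A test of the difference between the states called 10 genes of 16514 (0.0606%, with 1207 at an unadjusted p below 0.05), 4 of which were among the 467. TRHDE (ENSDARG00000109358), an ectoenzyme that degrades thyrotropin-releasing hormone, was at 6.76, 6.34, 7.49 and 7.58 CPM in resting wild types and at 2.69, 2.56, 2.85 and 3.58 CPM in resting mutants (-1.27, adjusted p = 0.00014). In injured fish it was at 9.51 to 12.3 CPM and 10.9 to 14.1 CPM, with overlapping groups, and the interaction was called at an adjusted p of 0.0074. SERPINH1 (ENSDARG00000019949), higher in resting mutants, stood at -0.42 after injury, with an interaction adjusted p of 0.0499. The zinc finger gene znf1094 was at 0.05 to 0.12 CPM in resting wild types and 2.56 to 3.05 CPM in resting mutants, while injured mutants were at 0 to 0.40 CPM (interaction adjusted p = 0.03). The gene si:dkey-201g16.6 had 1 count over the resting wild types and 211 over the resting mutants, a ratio of 219 with a 95% exact interval of 38.9 to 8700 for counting error only. Its injured mutants were at 0 to 0.10 CPM (interaction adjusted p = 0.036).

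Genes near an edited site are inherited together with it in a mutant line, so the neighbours of ankrd1a were read in RefSeq gene order (assembly GRCz12tu, used for order only). Of 11950 tested genes matched by symbol, 322 (2.69%) were called. Among the nearest 10 tested genes on each side 1 of 20 was called (5%), among the nearest 25 on each side 4 of 50 were called (8%), among the nearest 50 on each side 6 of 100 (6%), and among the nearest 100 on each side 11 of 200 (5.5%). After injury the same windows held 0 of 20, 2 of 50 (4%), 3 of 100 (3%) and 5 of 200 (2.5%), against 1.28% of all matched genes.

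The nearest called gene was fgfbp3, a secreted carrier of fibroblast growth factors, the second tested gene from ankrd1a. It was at 0.53, 0.67, 0.41 and 0.32 CPM in wild types and at 1.62, 4.11, 2.54 and 3.26 CPM in mutants (2.58, SE 0.38, adjusted p = 0.0026). After injury fgfbp3 was at 0.47 to 1.26 and 1.26 to 2.61 CPM and was not called (0.92, adjusted p = 0.22). The tau tubulin kinase gene ttbk1b, 14 genes away, went from 0.21 ± 0.11 to 1.40 ± 0.57 CPM (2.74, adjusted p = 0.012), and differed by 2.22 after injury (adjusted p = 0.032). The unnamed locus si:ch73-288o11.5, at place 25 on the same side, was at 68.6, 83.0, 61.3 and 85.6 CPM against 35.9, 17.4, 21.6 and 20 CPM (-1.65, adjusted p = 0.0025), and at -2.33 after injury (adjusted p = 0.00016). Each was higher or lower in all 4 mutants. At place 35 on either side lay reep3a, of a family that shapes endoplasmic reticulum, at -0.98 (adjusted p = 0.011), and CLN8, a receptor that exports lysosomal enzymes, at 1.43 (adjusted p = 0.033, and up to 0.079 without wild type 1, 2 or 3 or mutant 1 or 3). CLN8 was also higher in injured mutants, by 2.01 (adjusted p = 0.0059). The resting call of reep3a was lost under 5 of 19 alternatives (adjusted p up to 0.23). The fourth called gene of the nearest 25, MTFR1L, stood at 0.55 (adjusted p = 0.0495). Farther out, MDGA2, a synaptic adhesion gene, rose by 3.15 at place 81 (adjusted p = 0.0028), and ANKRD9, described above, lay at place 95. The genes around ankrd1a were named for their position, outside the rule for other named genes.

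**Figure D5:**
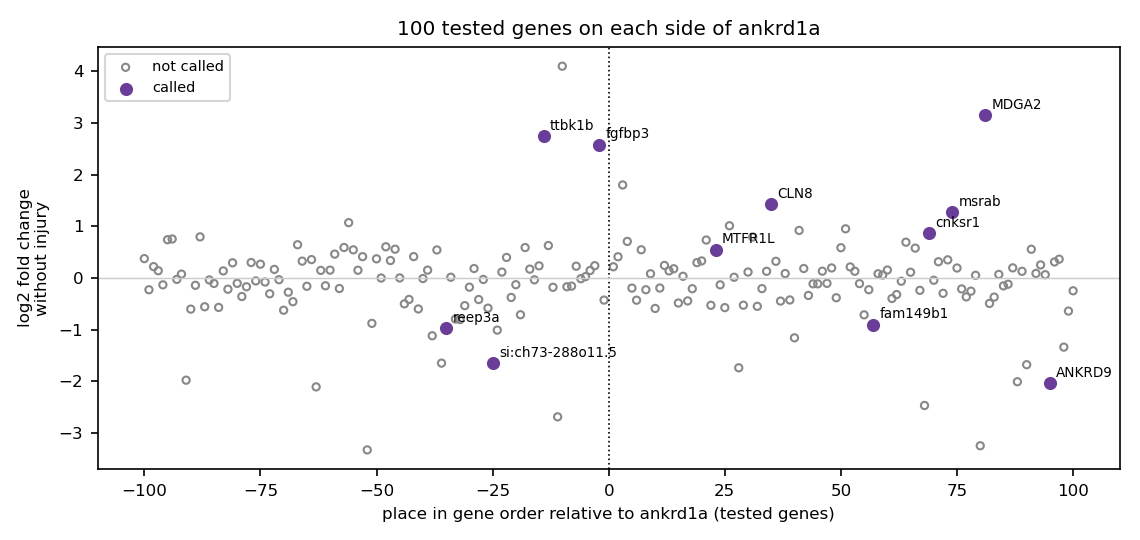
Log2 fold change without injury (y axis) of the 100 tested genes on each side of ankrd1a, by place in RefSeq gene order (x axis, ankrd1a at 0), with filled points for called genes. Of the 200 genes 11 are called (5.5%), among them fgfbp3 at 2.58 and MDGA2 at 3.15.

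Of 11925 adjacent pairs of tested genes in RefSeq order, 11 had both genes called, 5 of them in the same direction, and with 2.69% of genes called nothing is read from that count. The pair SIK1 and cbsb both fell, by 1.95 and 1.33. Opposite pairs were NIF3L1 (1.37) with tbx6 (-4.30), and BMP6 (-1.46) with TXNDC5 (0.61).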

How the data were processed

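Expected counts per gene from RSEM, deposited by the authors for 16 libraries, were used, with each column assigned to the sample whose description carries its name. The submitters' processing notes name RSEM 1.3.3, fastp 0.23.4 and STAR (2.7.10 and 2.7.0). No source used here gives the genome build or the strand setting. Values were rounded to whole numbers (94.3% were whole within 0.005). A table of symbols named 29201 of 32520 genes.

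Genes were filtered with filterByExpr (minimum count 10, minimum total 15), scaled by TMM and tested with edgeR 4.0.16 in R 4.3.3, by the quasi-likelihood F test with robust dispersions and 1 mean per group over all 16 libraries. The contrasts were the genotype difference in resting fish, the same in injured fish, and the interaction. All tests were two-sided. P-values were Benjamini-Hochberg adjusted over 16514 genes and called below 0.05. SE values were derived from the F statistic. The biological coefficient of variation was 31.3%. On simulated counts of 15792 genes for the resting comparison, 39 of 100 genes changed 2-fold and 97 of 100 changed 4-fold were recovered, with 10 false calls. The changed genes were drawn from those with a resting mean above 1 CPM, so recovery at lower levels was not measured. The simulated libraries held no injury effect. A list's level is the mean log2 CPM (prior count 2) of its members.

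Members and the 37 lists (1018 of 1064 symbols matched) were chosen with earlier results of these data known. Named genes are the ANKRD1 and ANKRD2 IDs, up to 15 called in each direction by size (no overlap, a proper symbol, mean log2 CPM no lower than 1), up to 6 called members of each list or the most abundant where none was called, up to 10 in each direction called in both states without overlap, adjacent or tandem called genes, the 10 most abundant genes and those called in the interaction, of which the text describes a part. ATF3, NR4A3, egr1, CCN2, LATS2, IRF7, IRF8, b2m, actn3a, TNNC2 and TNNT3 were named after their values were seen. Alternatives were library size scaling, DESeq2 1.42.0, limma 3.58.1 (voom), other count filters, thinned counts, marker covariates and leaving out libraries. Fits of only the 8 non-injured libraries, with and without a replicate block, were also among them. Libraries of 1 group correlated at 0.918 to 0.959 and none was a duplicate.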

Additional observations from a re-analysis of the deposited data

Results flagged for a closer look

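Each group of 4 libraries was screened for a sample set far from the others by Dixon's criterion, over 242 groups of values (genes named in the text, lists and library measures). Chance alone flags about 1 group in 20, and 12 were flagged.

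Among mutants, replicate 4 was highest in itgam.1 (5.18 CPM, the others 3.07 to 3.21) and in b2ml (522 CPM, the others 421 to 432), and its 10 most abundant genes took 42.11% of counts, more than in the other mutants. Mutant 1 was highest in hsf1 at 16.5 CPM (the others 12.7 to 13) and lowest in SERPINH1 (ENSDARG00000075954) at 28.1 CPM (the others at least 37.8). Mutant 3 was lowest in INHBA at 0.951 CPM (the others 1.28 to 1.34). Mutant 2 was highest in the mean log2 CPM of integrin and adhesion genes at 3.66 (the others 3.47 to 3.5).

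Among wild types, replicate 1 was highest in ANXA1 at 119 CPM (the others 65.6 to 72.4) and in fbxo44.10 at 6.88 CPM (the others 2.68 to 3.35), and lowest in ANKRD9 at 76.5 CPM (the others 137 to 148). Wild type 4 was lowest in lymphocyte markers, with a mean log2 CPM of -1.45. Wild type 3 alone had a count of si:dkey-201g16.6, at 0.0516 CPM. Mutant and wild type ranges of each gene named here stayed apart with these libraries included.

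The genotype difference changed between resting and injured fish for 10 genes in edgeR's test of the interaction (log2 difference after injury minus without). It was lower after injury for DGLUCY (-2.20, adjusted p = 0.0025), si:dkey-28g23.6 (-5.75, adjusted p = 0.0099), znf1094 (-5.23, adjusted p = 0.03), si:ch211-207c6.2 (-2.71, adjusted p = 0.03), si:dkey-201g16.6 (-8.64, adjusted p = 0.036), ENSDARG00000100540 (-4.23, adjusted p = 0.036) and SERPINH1 (ENSDARG00000019949; -1.31, adjusted p = 0.0499). It was higher for CCDC92 (3.59, adjusted p = 0.0025), TRHDE (1.42, adjusted p = 0.0074) and the calcineurin regulator rcan1a (1.75, adjusted p = 0.0099).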

How the results depend on the processing

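None of 80 called genes followed through the 19 alternatives, nearly all of them named in the text, changed sign, but many lost their call. With only the 8 non-injured libraries 36 of 75 tested there lost it. With the replicate number as a block in a fit of those 8 libraries, 66 of 75 lost it. The call was lost at 32 of 80 with the epidermis covariate, 22 of 80 with the macrophage covariate and 42 of 80 without wild types 1 and 3. With DESeq2 all 80 kept it. The 467 calls became 1136 with DESeq2 (all 467 among them), 284 with limma-voom, 130 with only the 8 non-injured libraries, 172 with the epidermis and 250 with the macrophage covariate, and 172 to 625 on leaving out 1 library. They were 114 without wild types 1 and 3, an alternative chosen after seeing the data. Calls in both states (83) became 229 with DESeq2, 46 with the epidermis covariate, 43 without wild types 1 and 3, and 45 to 91 on leaving out 1 library. The 244 calls after injury became 701 with DESeq2 and 454 with the macrophage covariate. The 10 interaction calls became 66 with DESeq2, 6 with library size scaling or the macrophage covariate, 5 with limma-voom, a minimum count of 50, thinned counts or the epidermis covariate, 3 without wild types 1 and 3, and 5 to 12 on leaving out 1 library. The cause of these differences was not tested. Deviations of same-numbered libraries correlated between -0.19 and -0.11, and 0 wild types matched best with the mutant of their number. Whether same-numbered fish shared a handling step was not tested. With the replicate number as a block, 11 genes were called, 7 higher and 4 lower. The block was fitted to only the 8 non-injured libraries, where 130 genes were called without it. Depth limits genes at few counts per library, such as INHBB, FOSB and tbx6, and intervals cover counting error only.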
